A study of Homo sapiens with 12 samples.

Results

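The 51 genes described here run the cell division cycle, from the licensing of replication origins to mitosis, and they were chosen by name from 20007 protein-coding genes. The rule uses no measured value, but the set was drawn up with earlier results of these data known. Chromatin accessibility around them was measured by ATAC-seq, in which a transposase cuts and tags open DNA. The cells were DU-145, a castration-resistant prostate cancer line, and BT-549, a triple-negative breast cancer line. In this study both carried a tetracycline-inducible short hairpin RNA against MUC1, which encodes a transmembrane mucin. Each line was treated for 7 days with 0.1% DMSO as vehicle or with doxycycline (DOX), which switches the hairpin on, with 3 libraries per condition and 12 in all. All 4 groups carried the hairpin construct, and no cells with a control hairpin were analysed here. MUC1 silencing and DOX itself therefore cannot be told apart. MUC1 RNA and protein were not measured in these libraries.

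A cell licenses its origins by loading the MCM helicase (MCM2 to MCM7) with the help of ORC, CDC6 and CDT1. Entry into S phase follows when cyclin D with CDK4 or CDK6, and then cyclin E with CDK2, phosphorylate RB1 and its relatives RBL1 and RBL2, which otherwise hold E2F factors in check. CDK inhibitors such as CDKN1A, CDKN1B and the INK4 proteins of CDKN2A, CDKN2B and CDKN2C oppose these kinases. Later genes, among them PLK1, the Aurora kinases and BIRC5, are switched on towards mitosis through MYBL2 and FOXM1. The promoters of such genes are usually open in cycling cells, so that their accessibility need not follow their RNA.

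The measured value was the average fragment coverage of each 100-bp bin of accessible DNA. For each gene, 2 sums were taken, one over the bins within 10 kb of any annotated transcription start site (TSS), called the window, and one over the bins within 1 kb, called the promoter. Values are given as normalised coverage, the mean per bin after scaling for library size. Each line was scaled on its own, so that levels can be compared between lines only where the text says that bins shared by both lines were used. A gene was called when the adjusted p of edgeR's quasi-likelihood test was under 0.05, with Benjamini-Hochberg adjustment over all protein-coding genes tested. Replicates are separate libraries, which the study describes as biologically independent.

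The windows of the 51 genes held 1977 of the 709366 bins listed for DU-145 and 1690 of the 472994 listed for BT-549. All 51 genes had bins in DU-145 and 50 had bins in BT-549, where CCND2, the cyclin D2 gene, had none. The windows resembled those of other genes in GC content, with medians of 56.7% against 56.5% in DU-145 and 57.9% against 59.3% in BT-549. They were better covered, with a median coverage per bin of 34.4 against 27.8 in DU-145 and 18.4 against 15.0 in BT-549. For 23 of the 51 genes the window also reached the TSS of at least 1 other protein-coding gene, so that a window value is not the value of 1 gene alone. CDKN2A and CDKN2B are neighbours and shared bins.

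Depth differed between the groups. Over all bins, coverage per library added up to between 12370094 and 24001285 in DU-145 vehicle cells and between 16337380 and 25232000 in DOX cells. In DU-145, 1.49% to 6.02% of bins had a value under 1 in vehicle and 0.233% to 0.851% in DOX libraries. The part of this difference in the DU-145 calls was not tested. In BT-549 vehicle cells coverage added up to between 9142900 and 13606129. In BT-549 DOX cells it added up to between 2502510 and 3267024, and 8.84% to 16.9% of bins had a value under 1. In BT-549 the lower depth and DOX treatment cannot be told apart. Promoter peaks at the epithelial genes CDH1 and EPCAM were found in all 6 DU-145 libraries, and peaks at the mesenchymal genes CDH2 and TWIST1 in all 6 BT-549 libraries and in none of DU-145. In BT-549, EPCAM had a promoter peak in 3 vehicle libraries and 1 DOX library, and CDH1 in 1 vehicle library and no DOX library. The mesenchymal genes VIM, ZEB1 and FN1 had peaks in all libraries of both lines. The prostate genes HOXB13 and KLK3 had no promoter peak in either line.

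The promoters of these genes were open almost everywhere. A peak summit lay within 1 kb of a TSS for 50.7 ± 0.577 of the 51 genes in DU-145 vehicle cells and for all 51 in DU-145 DOX cells (SD, n = 3). In BT-549 the count was 49.7 ± 0.577 in vehicle and 49.3 ± 0.577 in DOX cells (exact two-sided permutation test, p = 1, where 3 libraries against 3 cannot go below 0.1). Over all protein-coding genes, the share with such a peak was 71.7% ± 0.975 in vehicle and 72.4% ± 0.527 in DOX libraries of DU-145 (SD, n = 3). It was 62.6% to 65.0% in the 3 BT-549 DOX libraries and 70.7% to 73.1% in vehicle. CCND2 had no such summit in any BT-549 library. BIRC5, which encodes the inhibitor of apoptosis survivin, had a promoter peak in all 3 BT-549 vehicle libraries and in 1 of the 3 DOX libraries, which were the shallow ones.

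In DU-145 cells DOX was followed by changes in both directions. Accessibility rose at the windows of the mitotic genes AURKB, BIRC5, PLK1 and MKI67 and at those of the G1 genes CCNE1, CDK6 and CCND1. It fell at the licensing genes MCM3, MCM4, MCM6, ORC1 and ORC6, at the thymidylate synthase gene TYMS, at the INK4 genes CDKN2A and CDKN2B, and at AURKA and CDC25C. In all, 25 of 51 windows were called, 12 higher and 13 lower, with a median log2 fold change of -0.03. This share, 49.0%, was near the background: 45.6% of 16958 protein-coding genes were called, 23.5% higher and 22.1% lower, and 41.5% of the 7803 genes with coverage between the quartiles of these genes. With libraries scaled by their total coverage instead, the split was 5 higher and 21 lower, and the median of all genes moved to -0.092. Of the 25 calls, 18 were kept with that scaling, among them the rises at AURKB, BIRC5, RBL2 and CDK6. With 5 higher windows in all, most of the rises at CDC6, CCNE1, PLK1, CDK4 and MYBL2 were lost. These genes were not followed singly over the settings.

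Among the 11 licensing genes, 5 windows fell, 1 rose and 5 were not called. Coverage at MCM3, a subunit of the helicase, was 70.6, 65.7 and 64.9 in the vehicle libraries and 52.6, 47.4 and 50.9 in the DOX libraries. The groups did not overlap, and edgeR gave a log2 fold change of -0.42 ± 0.074 (SE, n = 3; adjusted p = 1.33e-05). At MCM4, whose window also covers the start of PRKDC, coverage went from 78.9, 82.0 and 104 to 68.5, 72.2 and 60.1, a log2 fold change of -0.40 (edgeR adjusted p = 5.93e-05). MCM6 went from 50.4, 48.5 and 56.9 to 40.8, 42.0 and 41.2, again with no overlap (log2 fold change -0.32, edgeR adjusted p = 0.00475). ORC6, a subunit of the origin recognition complex that shares its window with VPS35, fell by 0.25 on the log2 scale, and ORC1 by 0.34. CDC6, which loads the helicase, was the exception. Its coverage rose from 20.9, 21.0 and 22.2 to 26.1, 26.5 and 25 (log2 fold change 0.28, edgeR adjusted p = 0.00793). MCM2 did not pass, at 0.04 (adjusted p = 0.676).

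None of the 5 E2F windows was called in DU-145, and E2F1 stood at 0.01 ± 0.077 (edgeR adjusted p = 0.908). Of the pocket proteins, RBL2 rose, from 27.8, 25.6 and 27.8 to 34.6, 35.6 and 37.3 (log2 fold change 0.41, edgeR adjusted p = 9.23e-05), while RB1 stood at 0.09 (adjusted p = 0.469). All 3 RBL2 DOX libraries lay above all 3 vehicle libraries. In the G1 group, which holds the D and E cyclins, their kinases and CDC25A, 5 of 9 windows rose and CDK2 fell. At CCNE1, the cyclin E1 gene, coverage was 19.9, 16.1 and 20.3 in vehicle and 26.4, 22.9 and 23.0 in DOX libraries (log2 fold change 0.37, edgeR adjusted p = 0.00122). CDK6 went from 19.5, 20.1 and 17.7 to 22.9, 25 and 22.9 (0.30, edgeR adjusted p = 0.00197). Neither pair of groups overlapped. CCND1, the cyclin D1 gene, went from 16.4, 17.7 and 17.3 to 17.7, 22.3 and 21.0 (0.25, edgeR adjusted p = 0.00729), and was not called without DOX replicate 2 or with library totals. CCND2 rested on 10 bins with low coverage, from 4.62 to 8.11 without and from 8.45 to 10.2 with DOX (0.55, edgeR adjusted p = 0.0423), and lost its call in 8 other settings, among them without vehicle replicate 2 or 3 or without DOX replicate 2 or 3. At CDK2 and CDK4 the groups overlapped, with log2 fold changes of -0.15 and 0.16. The CDK2 promoter did not fall with its window and was not called (0.22, edgeR adjusted p = 0.137).

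Of the 5 CDK inhibitors, the INK4 genes CDKN2A and CDKN2B fell in DU-145. Coverage at CDKN2A was 30.5, 32.9 and 31.3 in vehicle and 23.4, 26.6 and 23.9 in DOX libraries (log2 fold change -0.36, edgeR adjusted p = 4.53e-05). CDKN2B went from 65.3, 62.8 and 57.0 to 46.3, 49.4 and 45.9 (-0.39, edgeR adjusted p = 1.86e-04). The groups were apart at both. CDKN1A, which encodes p21, ranged from 28.1 to 32.6 in vehicle and from 28.2 to 37.5 in DOX libraries, and was not called (0.11, adjusted p = 0.259). TYMS, which makes thymidylate for DNA synthesis, went from 60.1, 65.1 and 60.8 to 45.9, 49.5 and 49.7 (-0.36, edgeR adjusted p = 3.73e-05). PCNA, the sliding clamp of the replication fork, fell by 0.16 on the log2 scale (adjusted p = 0.0285).

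Among the 8 mitotic kinases and structural genes, 4 rose and 2 fell in DU-145. The window with the smallest p of the 51 was that of AURKB, the kinase of the chromosomal passenger complex, where coverage was 21.9, 23.6 and 20.7 with vehicle and 31.4, 39.6 and 35.0 with DOX. The edgeR log2 fold change was 0.68 ± 0.095 (SE; adjusted p = 1.50e-07). BIRC5, whose product belongs to the same complex, had only 9 bins, at 11.1, 14.4 and 10.3 in vehicle and 25.1, 17.4 and 20.5 in DOX libraries (0.78 ± 0.18, edgeR adjusted p = 4.86e-04). At PLK1, a kinase of mitotic entry, coverage went from 16.4, 16.4 and 13.2 to 19.2, 19.6 and 20.4 (0.36, edgeR adjusted p = 0.00925). In each of the 3 genes every DOX library exceeded every vehicle library. MKI67, the gene of the proliferation marker Ki-67, went from 19, 21.5 and 21.2 to 25.4, 23.5 and 24.9 (0.25, edgeR adjusted p = 0.00494), a call lost with library totals. AURKA moved the other way, from 92.8, 87.1 and 81.0 to 67.5, 61.6 and 66.3 (-0.42, edgeR adjusted p = 2.00e-05), in a window it shares with CSTF1. CDC20, an activator of the anaphase-promoting complex, fell by 0.28 over a window that takes in ELOVL1, and this call was lost with a 5 kb window.

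Of the 7 genes that act from S phase to mitosis or drive mitotic transcription, CDC25C fell and MYBL2 rose. CDC25C, the phosphatase that activates CDK1, went from 60.9, 57.7 and 61.7 to 46.3, 47.7 and 48.1 (-0.34, edgeR adjusted p = 2.96e-05), and shares its window with FAM53C. MYBL2 rose by 0.25 on the log2 scale (adjusted p = 0.0124). CCNB1, the cyclin B1 gene, stood at -0.08 (adjusted p = 0.473) and FOXM1 at 0.09 (adjusted p = 0.549). Of 77 other cell cycle genes, 35 were called, or 45.5% against 45.6% of all genes. The 9 higher and 26 lower made 11.7% and 33.8%, against 23.5% and 22.1% of all genes. CDC25B (-0.45), CHEK2 (-0.46) and HMGB2 (-0.40) were lower and CCNA1 (0.59) higher.

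At the promoters alone, 18 of 51 genes were called in DU-145, 8 higher and 10 lower, or 35.3% against 34.9% of 14739 genes (17.6% higher, 17.3% lower). With library totals the split was 4 and 21, with an all-gene median of -0.169, and with loess offsets it was 10 and 7. The 4 higher promoters with totals were AURKB, BIRC5, CDK6 and RBL2, so that the rises at PLK1, MKI67, CDT1 and CCNB2 given below were not called there. Of the 12 windows that rose, 6 also rose at the promoter (AURKB, BIRC5, CDK6, MKI67, PLK1 and RBL2), and of the 13 that fell, 9 also fell there. CCNE1, CCND1, CCND2, CDC6, CDK4 and MYBL2 were called over the window and not at the promoter. The AURKB promoter rose from 24.7, 27.2 and 22.3 to 40.3, 52.5 and 43.1 (log2 fold change 0.87, edgeR adjusted p = 4.92e-07), with no overlap. CDT1 (0.34, adjusted p = 0.0237) and CCNB2 (0.30, adjusted p = 0.0144) rose, and MCM7 fell by 0.20 (adjusted p = 0.0253), at the promoter alone.

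**Figure D1:**
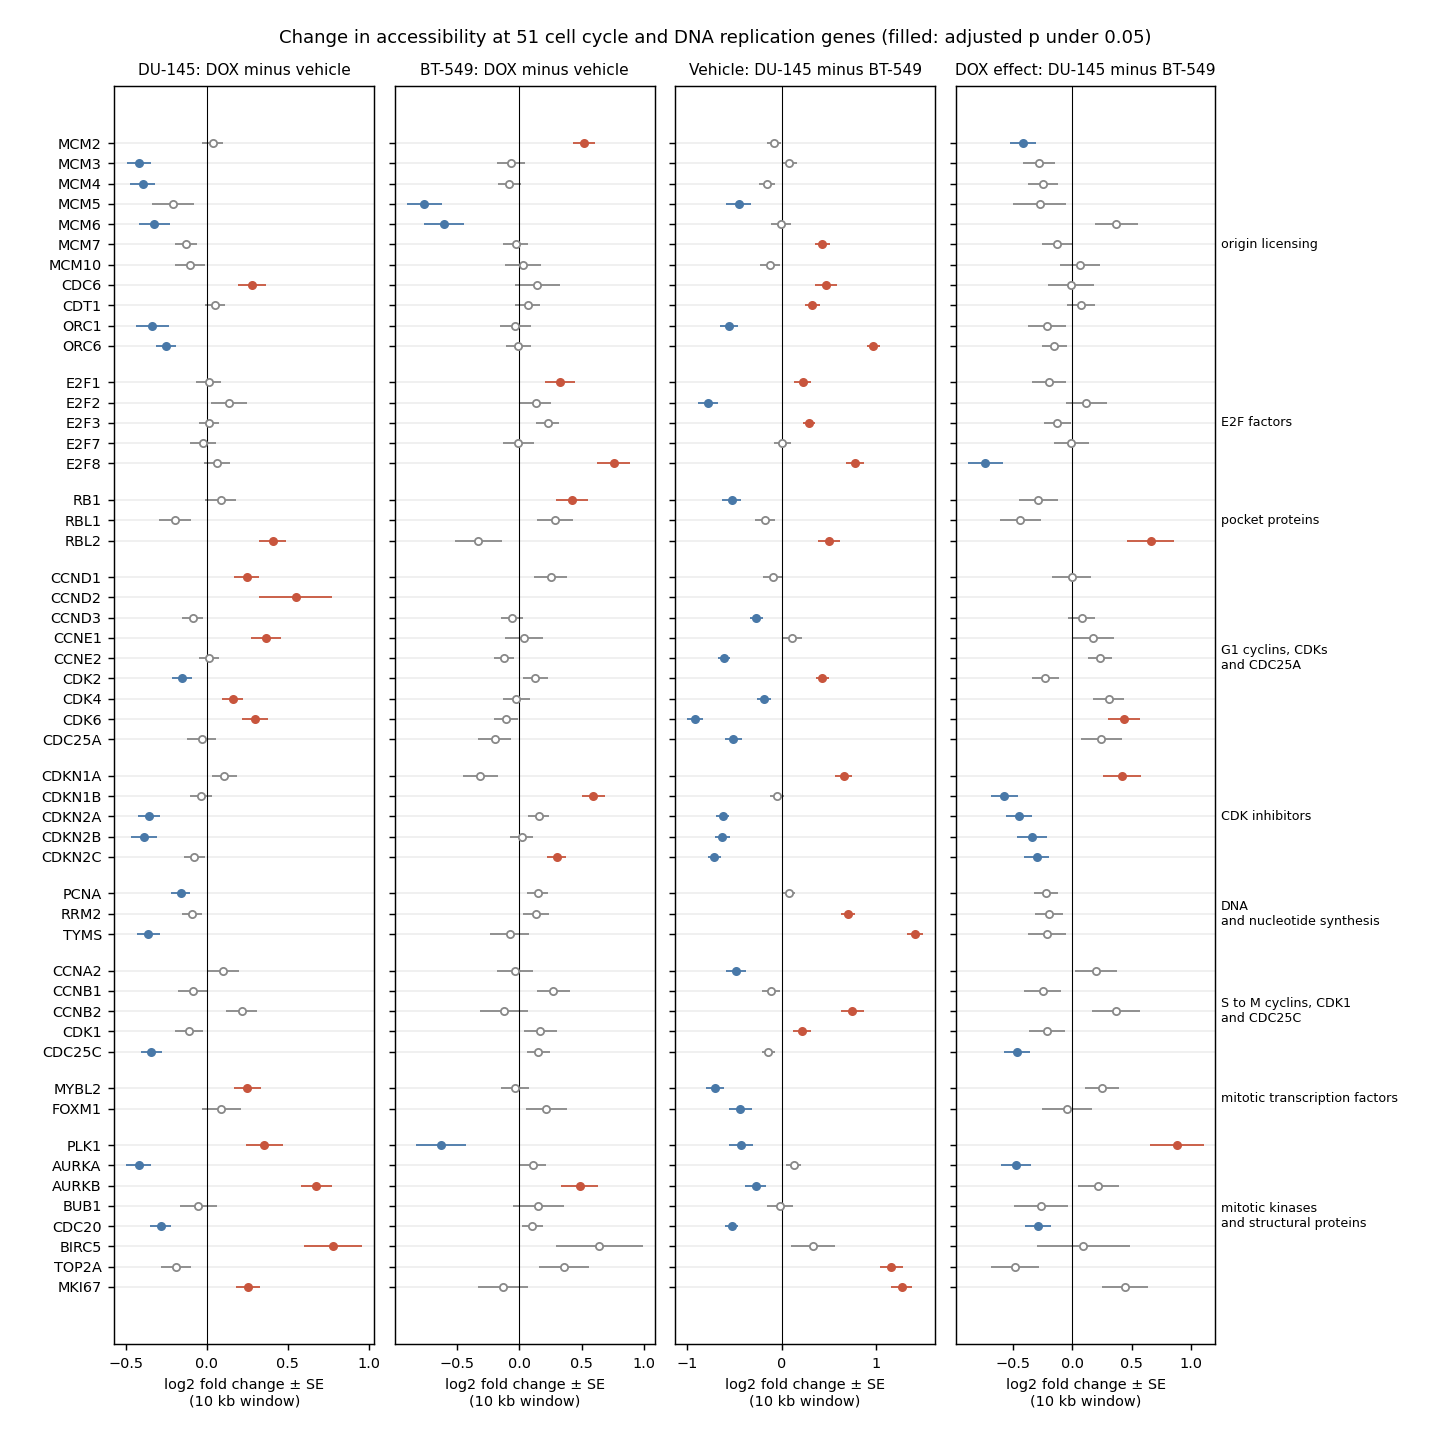
Log2 fold change with its standard error in the 10 kb window of each gene, for DOX against vehicle in DU-145 and in BT-549, for vehicle DU-145 against vehicle BT-549 and for the difference between the DOX effects of the lines, each panel on its own horizontal scale. Filled points passed an adjusted p of 0.05 (red higher, blue lower) and grey open points did not: in DU-145, 12 windows were higher and 13 lower, and in BT-549, 7 were higher and 3 lower.

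In BT-549 cells fewer of the windows changed. They rose at E2F8 and E2F1, at the inhibitors CDKN1B and CDKN2C, at RB1, MCM2 and AURKB, and fell at MCM5, MCM6 and PLK1. These were 10 of 50 windows, where the share over all genes was 27.4% (of 15597; 14.1% higher, 13.3% lower) and 28.9% over the genes of like coverage. The median over the 50 genes was 0.088 on the log2 scale, against a median of 0 over all genes. With library totals 11 were higher and 3 lower. At the promoters 7 of 50 were called, 5 higher and 2 lower, or 14.0% against 22.6% of 14029 genes (12.2% higher, 10.4% lower), and with library totals 10 higher and 2 lower. On simulated data of the same depth, the windows test recovered 82% of 2-fold changes in BT-549 and 97% in DU-145, but 32% and 38% of 1.5-fold changes. The simulation had 200 changed genes and a preset spread between libraries, neither fitted to these data. These shares therefore do not give the power of the test here.

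Of the E2F group, E2F8, an atypical E2F that represses E2F targets, went from 17.3, 15.1 and 16.7 in vehicle to 29.3, 26.9 and 27.0 in DOX libraries. The edgeR log2 fold change was 0.76 ± 0.13 (SE; adjusted p = 2.73e-05), and all window bins lay within 1 kb of a TSS. The groups were far apart. E2F1 went from 25.8, 27.3 and 23.2 to 33.8, 33.7 and 28.7 (0.33, edgeR adjusted p = 0.0407) and was called in the setting given here but lost in 8 others, 4 of them leaving out BT-549 vehicle replicate 1 or 3 or BT-549 DOX replicate 1 or 2. RB1, the pocket protein that binds E2F1, went from 19.3, 18.6 and 20.6 to 22.4, 30.7 and 25.4 (0.43, edgeR adjusted p = 0.0104), which did not pass without DOX replicate 2. The start of LPAR6 lies in the same window.

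CDKN1B, which encodes p27, had the smallest p of the 50 windows. Its coverage was 13.2, 13.9 and 12.7 in vehicle and 20.3, 22.9 and 17.1 in DOX libraries (log2 fold change 0.59 ± 0.094, edgeR adjusted p = 5.40e-06). The groups did not overlap over the window, which also takes in GPR19 and APOLD1, while at the promoter they did. At CDKN2C, which encodes p18, coverage went from 21.8, 21.7 and 23.4 to 25.1, 29.7 and 27.5 (0.30, edgeR adjusted p = 0.00318), a call lost with a 5 kb window. CDKN2A (0.16, adjusted p = 0.161) and CDKN2B (0.02, adjusted p = 0.889) were not called in BT-549. CDKN1A went from 10.5, 11.3 and 10.7 to 9.95, 7.87 and 8.47, with no overlap, but did not pass (-0.31, adjusted p = 0.0932).

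Among the licensing genes of BT-549, MCM2 rose, from 19.3, 20.9 and 20.7 to 28.3, 28.3 and 30.6 (log2 fold change 0.52, edgeR adjusted p = 2.29e-05). Within 5 kb of its TSS the value was -0.05 (adjusted p = 0.878), so that the change lay in the outer window, near the start of TPRA1. The MCM5 window fell from 8.32, 9.83 and 7.98 to 5.33, 5.57 and 4.65 (-0.76, edgeR adjusted p = 5.36e-05). Its promoter was not called (0.02, edgeR adjusted p = 0.946), so that the change lay more than 1 kb from its TSS. MCM6 fell from 23.2, 20.4 and 27.3 to 17.0, 13.4 and 16.1 (-0.60, edgeR adjusted p = 0.00362). In both windows every DOX library lay below every vehicle library. CDT1, which works with CDC6 to load the helicase, rose at its promoter from 6.45, 6.82 and 6.91 to 14.3, 8.58 and 11.7 (0.78, edgeR adjusted p = 0.00418).

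Of the mitotic genes, AURKB rose in BT-549 from 14.9, 15.7 and 12.5 to 16.8, 24.4 and 19.3 (0.48, edgeR adjusted p = 0.0106). This call did not pass without vehicle replicate 3 or without DOX replicate 2. PLK1 fell, from 14.9, 14.4 and 13.0 to 10.8, 6.36 and 10.4 (-0.62, edgeR adjusted p = 0.016), and did not pass without vehicle replicate 1 or 2 or without DOX replicate 2. At the promoter, PLK1 went from 17.5, 17.5 and 15.3 to 11.2, 7.21 and 11.2 (-0.77, edgeR adjusted p = 0.00566). No window of the 8 tested G1 genes passed, with CCND1 at 0.25 (adjusted p = 0.157) and CDK6 at -0.11 (adjusted p = 0.448). CCNB1 (0.27, adjusted p = 0.115), FOXM1 (0.22, adjusted p = 0.35) and MKI67 (-0.13, adjusted p = 0.678) did not pass either. Of the 77 other cell cycle genes, 15 were called, or 19.5% against 27.4% of all genes. The 11 higher and 4 lower made 14.3% and 5.19%, against 14.1% and 13.3% of all genes. POLD1 (0.71) and CDKN2D (0.66) were higher and CENPA (-0.62) lower.

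**Figure D2:**
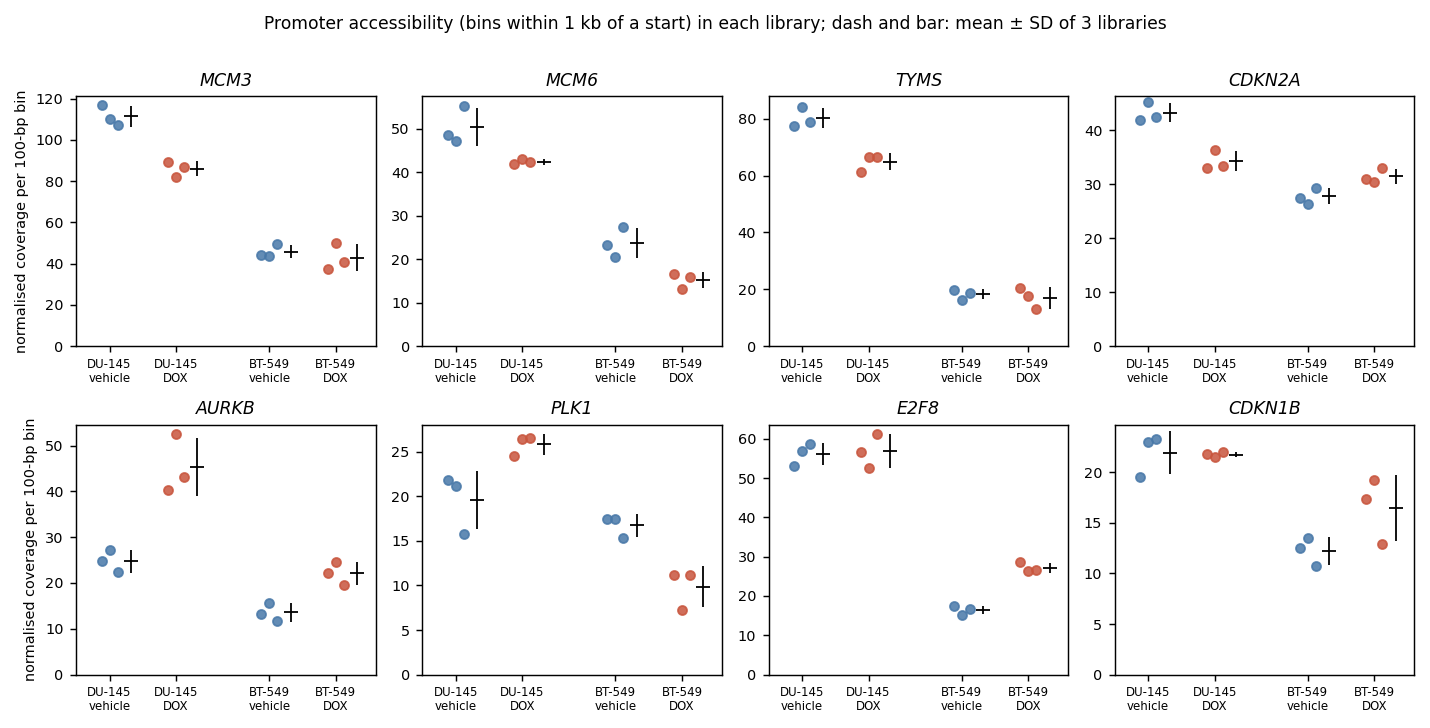
Normalised coverage of 8 promoters in each of the 12 libraries, points for libraries and bars for the mean and SD of 3, with the 2 lines scaled separately. MCM6 was lower with DOX and AURKB higher in both lines, while PLK1 was higher in DU-145 (21.8, 21.2 and 15.8 in vehicle against 24.5, 26.5 and 26.6 in DOX) and lower in BT-549.

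The lines were then set against each other. AURKB was called higher in both lines and MCM6 lower in both, PLK1 was higher in DU-145 and lower in BT-549, and 19 genes were called in neither. The other 29 passed in 1 line only, which does not by itself show that the lines differed. That difference was tested with a line-by-DOX term over the 321392 bins shared by both lines, in which 13 of 50 windows were called, or 26.0% against 28.8% of 14936 genes (14.8% higher, 13.9% lower). In 9 of them the DOX effect was lower in DU-145 than in BT-549 and in 4 it was higher. The split was 3 higher and 15 lower with library totals and 6 and 7 with loess offsets. PLK1 had the widest gap, 0.88 ± 0.228 (SE) on the log2 scale (edgeR adjusted p = 0.00281), with a higher value in DU-145. E2F8 (-0.73), CDKN1B (-0.57) and MCM2 (-0.41) rose in BT-549 and were not called in DU-145. CDC25C (-0.47), AURKA (-0.47), CDKN2A (-0.45), CDKN2B (-0.34) and CDC20 (-0.29) fell in DU-145 and were not called in BT-549.

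All 5 CDK inhibitors were among the 13. CDKN1B, CDKN2A, CDKN2B and CDKN2C had a lower DOX effect in DU-145 and CDKN1A a higher one, at 0.42 (edgeR adjusted p = 0.0442). The calls at CDKN1A, CDKN2B, CDKN2C and CDC20 were lost in 13, 9, 7 and 11 other settings, and those at CDKN1B and CDKN2A in none. RBL2 (0.66) and CDK6 (0.44) had a higher effect in DU-145, and RBL2 did not pass without BT-549 DOX replicate 1. CCND1 (-0.01, adjusted p = 0.985), E2F1 (-0.20, adjusted p = 0.33), RB1 (-0.29, adjusted p = 0.188), CCNB1 (-0.25, adjusted p = 0.239), FOXM1 (-0.05, adjusted p = 0.889) and MKI67 (0.44, adjusted p = 0.0757) did not pass. The low depth of the 3 BT-549 DOX libraries enters every value of this test, and its part was not tested.

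Without DOX the lines already differed. TYMS, MKI67, TOP2A and ORC6 were more accessible in DU-145, and CDK6, E2F2, the INK4 genes and MYBL2 in BT-549. Over the shared bins, 34 of 50 windows were called, 16 higher and 18 lower in DU-145, or 68.0% against 76.0% of all genes tested (37.9% higher, 38.1% lower) and 77.7% of genes of like coverage. Between lines, DNA copy number and accessibility cannot be told apart. TYMS was the furthest apart, at 88.0, 94.9 and 88.0 in DU-145 and 37.0, 30.2 and 35.1 in BT-549 (log2 difference 1.41, edgeR adjusted p = 2.09e-16). MKI67 stood at 52.0, 59.0 and 57.0 against 23.7, 24.4 and 21.6 (1.27), and ORC6 at 109, 110 and 107 against 55.5, 55.6 and 55.8 (0.97). These groups were separated by more than the whole spread of either line.

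CDK6 was lower in DU-145, at 15.5, 16 and 13.8 against 27.4, 29.9 and 28.0 (-0.91, edgeR adjusted p = 9.69e-12). CDKN2C (-0.71), CDKN2B (-0.63) and CDKN2A (-0.62) were lower in DU-145 as well, and CDKN1A was higher (0.65). Of the 8 G1 genes tested, 5 were lower in DU-145 and CDK2 alone was higher. RB1 was lower, at 25.9, 31.0 and 29.0 against 41.0, 39.0 and 44.3 (-0.53, edgeR adjusted p = 2.27e-05), and E2F1 was slightly higher (0.22, adjusted p = 0.0225), which was lost in 4 other settings, among them without DU-145 vehicle replicate 3 and without BT-549 vehicle replicate 3. FOXM1 was lower (-0.44). MCM2 (-0.08), CCND1 (-0.10) and CCNB1 (-0.11) did not pass. Of the 77 other cell cycle genes, 61 were called, or 79.2% against 76.0% of all genes tested. RFC3 (-1.59) and ANLN (-1.13) were lower and E2F4 (1.23) and LIN52 (0.92) higher in DU-145.

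Single bins gave a finer view. With the limits that the study set, a bin counted as a differentially accessible region (DAR) where it changed 2-fold or more and its adjusted p was below 1e-05 (DU-145) or 0.01 (BT-549). In DU-145, 44 of the 1977 bins were DARs, 23 higher and 21 lower, in 16 genes. That made 2.23%, against 6.22% of all bins (4.09% higher, 2.13% lower). Bins within 1 kb of a TSS were DARs in 1.54% of cases around these genes and in 1.69% over all protein-coding genes, and bins further out in 3.73% against 8.5%. The bins further out are unlike in distance, since those of these genes lie within 10 kb of a TSS and the others include distal bins. With library totals the split was 27 and 9, and with the GC trend removed it was 13 and 30. With DESeq2, the test of the study, 1 bin was higher and 7 lower, where 1.83% of all bins were called (6517 higher, 6430 lower). At most 1 of the higher DU-145 bins described below therefore passed with DESeq2. Without vehicle replicate 2 the split was 6 and 16, where 3.36% of all bins were called. In BT-549, 52 of 1690 bins were DARs, 42 higher and 10 lower, in 14 genes, or 3.08% against 4.92% of all bins (2.05% higher, 2.87% lower). Within 1 kb of a TSS the share was 2.38% around these genes and 2.13% over all protein-coding genes. There 2.14% against 1.45% were higher and 0.238% against 0.677% lower. Bins further out, again unlike in distance, were DARs in 5.1% against 7.09%. With DESeq2, 22 were higher and 0 lower, where 1.62% of all bins were called (4446 higher, 3223 lower). None of the lower BT-549 bins described below passed with DESeq2. With the GC trend removed, 20 were higher and 14 lower, and the median over all bins moved from -0.062 to -0.177. Only 3 bins were DARs in both lines, and all 3 lay near TPRA1 in the MCM2 window.

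The regions with the most DAR bins in DU-145 lay in part at start sites and in part away from them. Of the 44 DAR bins, 21 lay within 1 kb of a protein-coding TSS, and 13 within 1 kb of a TSS of the listed gene itself. At CCND3, the cyclin D3 gene, 6 adjoining bins (hg38 chr6:42045701-42046300) fell by 1.5 to 2.36 on the log2 scale. Coverage in one of them went from 95.2, 80.0 and 99.1 to 25.9, 31.3 and 28.8 (edgeR adjusted p = 4.47e-13), while the whole CCND3 window was not called (-0.09, adjusted p = 0.296). In an intron of CCNE1, 3 bins rose by 3.32 to 4.23. The middle one was nearly closed in vehicle libraries, at 2.70, 1.30 and 1.05, and stood at 48.8, 25.9 and 29.8 with DOX (edgeR adjusted p = 3.99e-13). Regions were listed where at least 3 replicates had a peak, regardless of condition. Bins nearly closed in one condition, here and below, may therefore be listed only through the libraries where they were high. The test made no allowance for this selection. At CDKN2A, 3 bins 41 to 241 bp from a TSS (chr9:21994101-21994400) and 2 at another TSS (chr9:21974901-21975100) were lower, the highest bin of the window among them, at 162, 161 and 135 against 76.4, 73.9 and 81.3.

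At RBL2, 3 bins (chr16:53445601-53445900) at a downstream alternative TSS, in an intron of the canonical transcript, rose by 1.57 to 1.75, one of them from 28.6, 16.7 and 18.2 to 70.7, 57.6 and 58.3. In the MCM7 window, 3 bins rose by 2.52 to 2.93, from 5.07, 3.13 and 0.0794 to 13.8, 24.4 and 25 in the clearest, and the nearest TSS, 1719 bp away, was that of COPS6. In the PLK1 window, 2 bins in an untranslated part of DCTN5 went from below 3 in every vehicle library to between 11.9 and 22.2 with DOX. The PLK1 promoter bins in DU-145 were not DARs.

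In BT-549 the longest run was 11 bins in the CDKN2C window (chr1:50977901-50979000), 7705 to 8705 bp downstream of a TSS, which rose by 1.05 to 1.77. One bin went from 30.1, 41.1 and 39.9 to 88.0, 101 and 95.8 (edgeR adjusted p = 8.09e-10). In the MCM2 window, 9 bins (chr3:127591301-127592200) rose by 1.34 to 3.25, and the one with the smallest p went from 3.95, 3.48 and 6.53 to 33.4, 45.0 and 52.0 (edgeR adjusted p = 4.34e-15). The same bin rose in DU-145 from 34.0, 29.3 and 31.5 to 75, 62.1 and 76.9 (1.17, edgeR adjusted p = 1.05e-07). The region lies outside the canonical transcripts, 655 bp from a TSS of TPRA1 and at -7059 to -6259 bp from that of MCM2. The MCM5 bins that fell lay at -6383 to -4683 bp from its TSS, 1 of them in an untranslated part of HMOX1.

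**Figure D3:**
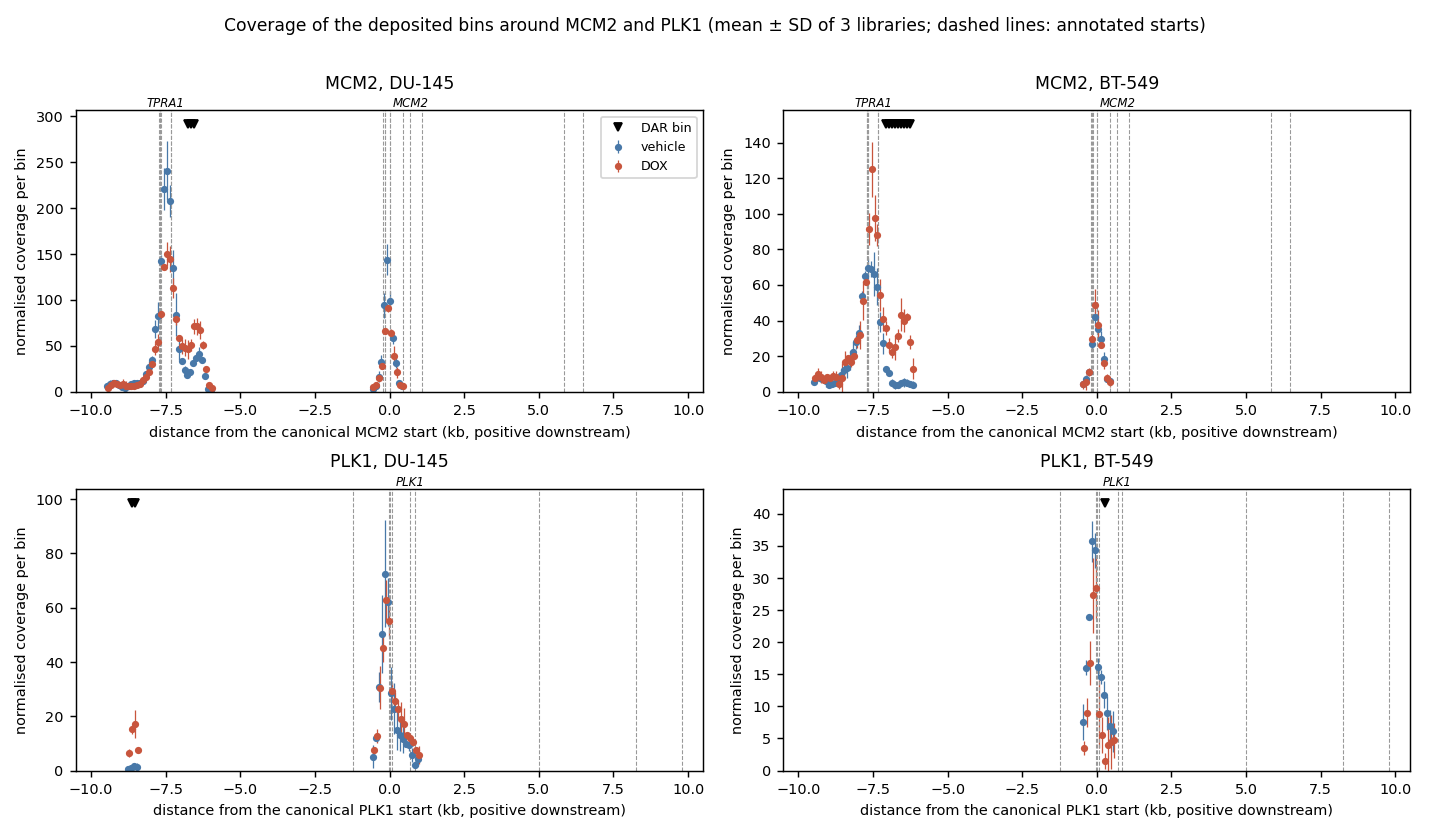
Mean normalised coverage per 100-bp bin in vehicle and DOX cells over the MCM2 and PLK1 windows of both lines, against the distance from the canonical TSS, with triangles at DAR bins and dashed lines at annotated starts. The MCM2 DARs of both lines lay at -7059 to -6259 bp, near the starts of TPRA1, and the PLK1 DARs lay upstream in DU-145 and just downstream of the start in BT-549.

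Bins at the member starts themselves were DARs in 5 genes in DU-145 (13 bins, 5 higher) and in 7 genes in BT-549 (14 bins, 11 higher). Over the bins within 1 kb of any TSS in the windows, the DAR share was 1.54% in DU-145 and 2.38% in BT-549. Over all protein-coding genes it was 1.69% and 2.13%. At E2F8 in BT-549 the highest bin of the window went from 37.9, 40.2 and 35.3 to 89.1, 106 and 70.4 (log2 fold change 1.19, edgeR adjusted p = 1.92e-07). At AURKB 2 bins next to the TSS rose in BT-549, one from 16.2, 22.9 and 15.0 to 43.3, 48.5 and 35.7, and 2 bins 173 and 273 bp into the gene rose in DU-145. At the PLK1 start in BT-549 1 bin fell from 11.7, 13.9 and 9.68 to 2.28, 0.0 and 2.19. At MCM6 in BT-549, 2 bins 492 and 592 bp into the gene fell, one from 32.9, 24.9 and 39.1 to 10.2, 9.79 and 16.4. At AURKA in DU-145 the highest bin (chr20:56392301-56392400) went from 387, 326 and 292 to 227, 191 and 215, short of a 2-fold change (-0.68, edgeR adjusted p = 2.64e-07).

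The sequences of 2 such regions are shown for the letters they hold, and they do not stand for all regions with as many DAR bins. They are given on the plus strand of hg38, with capitals for an AP-1 word (TGACTCA on either strand) or a CCAAT box (CCAAT on either strand). AP-1 is a factor of the JUN and FOS families. The regions are in the MCM2 (chr3:127591601-127591900) and MCM7 (chr7:100087101-100087400) windows, and both were higher in DU-145.
MCM2: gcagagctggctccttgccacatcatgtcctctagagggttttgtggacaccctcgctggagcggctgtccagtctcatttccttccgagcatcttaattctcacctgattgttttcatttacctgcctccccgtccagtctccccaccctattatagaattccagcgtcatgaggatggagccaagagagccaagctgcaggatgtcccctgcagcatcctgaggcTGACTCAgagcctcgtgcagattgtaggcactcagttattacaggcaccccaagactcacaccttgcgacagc
MCM7: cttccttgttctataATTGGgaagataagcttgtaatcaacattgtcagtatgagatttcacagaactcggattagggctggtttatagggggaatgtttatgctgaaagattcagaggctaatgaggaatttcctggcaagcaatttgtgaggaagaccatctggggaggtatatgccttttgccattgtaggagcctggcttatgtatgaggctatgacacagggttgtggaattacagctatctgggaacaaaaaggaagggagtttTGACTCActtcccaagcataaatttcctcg
The MCM2 region, which rose in both lines, and the MCM7 region each held 1 AP-1 word, and the MCM7 region also held 1 CCAAT box. The RBL2 region and the region in the CCNE1 intron (chr19:29820001-29820300), each also with 3 higher bins in DU-145, held neither.

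Counting over all DAR bins with 50 bp on each side, an AP-1 word on either strand was found in 6 of the 23 higher bins of DU-145, or 26.1%, and in 0 of the 21 lower bins. The share was 26.0% over all higher and 9.35% over all lower DAR bins of DU-145, and 9.73% over all bins. Over all 1977 bins near the 51 genes it was 3.84%, and over all DU-145 bins beyond 1 kb of a TSS it was 12.9%. Of the 23 higher bins, 14 lay beyond 1 kb of a TSS. Among the 6 with the word, 2 were adjoining bins of the MCM2 window that counted the same word. In BT-549 the word was found in 2 of the 42 higher bins, 4.76%, against 12.3% of all higher DAR bins and 6.12% of all bins. It was found in 1 of the 10 lower bins, 10.0%, against 14.8% of all lower DAR bins.

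Promoter sequence was read from RefSeq (GRCh38.p14), from 250 bases before to 50 after a TSS, and 41 of the 51 genes matched. E2F words (TTTCCCGC, TTTCGCGC, TTTGCCGC or TTTGGCGC, either strand) were found in 14 of 41, or 34.1%, against 3.31% of 35116 promoters, and in 6 of the 9 licensing genes. The cell cycle homology region (CHR, TTTGAA or TTCGAA), an element of mitotic promoters, was found in 24.4% against 16.4%, and in 5 of the 6 mitotic kinase and structural genes. CCAAT boxes stood in 58.5% against 34.6%, and in all 6 mitotic genes. No member promoter held an AP-1 word, against 4.95% of all promoters. The 3 promoters printed here are those of PLK1 (chr16:23678639-23678938, plus strand), MCM6 (chr2:135876394-135876693, minus strand) and CDKN1B (chr12:12717118-12717417, plus strand). Each is read along its gene, with the words above in capitals. Summed within 1 kb of a TSS, PLK1 was called in opposite directions in the 2 lines, MCM6 fell in both and CDKN1B rose in BT-549.
PLK1: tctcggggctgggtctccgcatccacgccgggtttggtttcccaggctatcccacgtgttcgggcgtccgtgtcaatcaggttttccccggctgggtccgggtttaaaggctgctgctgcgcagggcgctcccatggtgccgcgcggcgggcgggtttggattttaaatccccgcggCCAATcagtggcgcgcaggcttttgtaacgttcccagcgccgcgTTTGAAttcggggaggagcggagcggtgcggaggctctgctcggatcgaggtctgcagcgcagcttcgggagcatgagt
MCM6: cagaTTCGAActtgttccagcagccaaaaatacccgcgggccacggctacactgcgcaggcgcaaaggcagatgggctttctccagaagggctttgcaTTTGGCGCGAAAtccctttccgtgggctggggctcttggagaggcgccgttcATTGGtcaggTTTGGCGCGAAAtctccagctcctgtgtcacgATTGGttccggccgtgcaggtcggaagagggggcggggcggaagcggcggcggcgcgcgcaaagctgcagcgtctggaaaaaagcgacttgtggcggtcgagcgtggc
CDKN1B: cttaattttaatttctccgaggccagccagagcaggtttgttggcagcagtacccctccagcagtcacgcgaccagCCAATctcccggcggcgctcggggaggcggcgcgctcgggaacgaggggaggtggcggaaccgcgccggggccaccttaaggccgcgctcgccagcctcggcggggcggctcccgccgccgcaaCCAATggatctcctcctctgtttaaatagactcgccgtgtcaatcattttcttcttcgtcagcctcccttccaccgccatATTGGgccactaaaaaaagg
The PLK1 promoter held a CCAAT box 73 bases and a CHR 29 bases before the TSS, and no E2F word. The printed PLK1 stretch itself did not rise in DU-145. In its bins at -139 and -39 bp, mean coverage was 72.5 and 62.1 with vehicle and 62.9 and 55.0 with DOX, on a scale set by all bins. The MCM6 promoter held 4 E2F words, in 2 pairs that overlap on opposite strands. The CDKN1B promoter held 3 CCAAT boxes and neither of the other elements.

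Of the 14 genes with an E2F word, 1 promoter rose and 4 fell in DU-145, and of the 27 without, 6 rose and 4 fell, with median log2 fold changes of -0.07 and 0.03. In BT-549 the medians were 0.12 and 0.02. Of the 10 genes with a CHR, 4 rose and 1 fell in DU-145, and 0 rose and 2 fell in BT-549, with medians of 0.06 and -0.16. Of the 31 without a CHR, 3 rose and 7 fell in DU-145, and 4 rose and 0 fell in BT-549, with medians of -0.01 and 0.05. Over all promoters tested, 17.6% rose and 17.3% fell in DU-145, and 12.2% rose and 10.4% fell in BT-549. Between the vehicle cells, 10 kb windows over shared bins were counted in place of promoters. Of all genes tested there, 37.9% were higher in DU-145 and 38.1% lower. Of the 14 genes with an E2F word, 7 were higher and 2 lower, against 7 and 13 of the 27 without. These counts describe the members and were not tested.

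The DOX effect of single bins varied with the distance from the TSS. Within 200 bp of the canonical TSS, the median log2 fold change of single bins was -0.344 for the 51 genes and -0.392 for all protein-coding genes. Between 400 and 1000 bp it was 0.022 for the 51 genes and -0.11 for all. Going downstream of the TSS, the members' medians were -0.282 in the first 200 bp and 0.054, 0.082 and 0.139 in the steps starting at 400, 600 and 800 bp, where all genes stood at -0.17, -0.102 and -0.088. In BT-549 the median within 200 bp was 0.189 for the 51 genes and 0.138 for all, and 0.04 and 0.042 further out. In DU-145 the centre of the promoters was thus below 0 for the 51 genes and for genes at large alike, on a scale set by all bins.

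**Figure D4:**
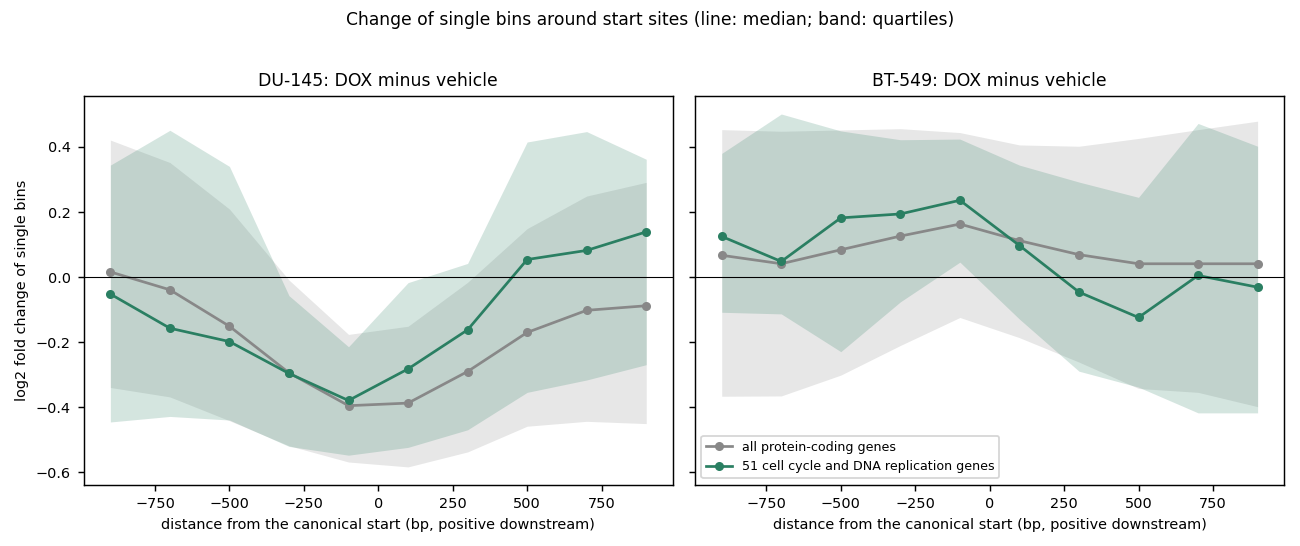
Median and quartiles of the single-bin log2 fold change (DOX against vehicle) in steps of 200 bp around the canonical TSS, for the 51 genes and for all protein-coding genes, in DU-145 and BT-549. In DU-145 both curves dipped at the TSS, to -0.379 and -0.395 in the step just before it, and in BT-549 both were above 0 there.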

How the data were processed

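ATAC-seq libraries of DU-145 and BT-549 cells were analysed, 3 vehicle and 3 DOX libraries per line. The labels name the vehicle cells as untreated in one field and as treated with DMSO in another. The authors aligned fragments to hg38 with BWA, removed duplicates with Picard and called peaks per library with MACS2 2.2.7.1 at a q-value of 0.05. They merged regions found in at least 3 replicates, regardless of condition, and cut them into 100-bp bins. Per line they deposited estimated counts: the mean fragment coverage of each bin, not scaled for depth. The deposited peak lists give a score, a fold enrichment (ratio) and the -log10 of p and q for each peak, and the summit position.

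Bin values within 10 kb or 1 kb of any GENCODE v44 TSS were summed per gene and rounded. Features with a total of at least 10 were tested with edgeR 4.0.16 (R 4.3.3, quasi-likelihood, robust, TMM factors, Benjamini-Hochberg adjustment). Library totals were the main alternative scaling, and DESeq2 1.42.0, limma 3.58.1 (log2 of CPM plus 1), RLE factors, loess offsets, GC correction, other filters and windows, a replicate block and leaving out each library were others. DESeq2 was the test of the study. The design had assumed whole counts. SE is the size of the log2 fold change divided by the square root of F. The script was tested on simulated data with 200 changed genes.

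The genes and lists were chosen with earlier results of these data known. In each comparison the text names up to 12 called genes by smallest p and 12 fixed genes (E2F1, RB1, CCND1, CCND2, CDK6, CDKN1A, CDKN2A, CDKN2B, MCM2, CCNB1, FOXM1 and MKI67), and per line the regions with most DAR bins. Others were named after their values were seen. The rule's comparison with promoters of similar coverage is given as a count only. Summed coverage sets the precision and covers listed bins only. P-values measure the spread between these libraries. A few items are not reported here.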

Additional observations from a re-analysis of the deposited data

Results flagged for a closer look

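The DOX effect differed between the lines, by a test of the line-by-DOX term in edgeR, at 13 genes, given here as the effect in DU-145 minus that in BT-549 on the log2 scale. PLK1 stood at 0.88 (adjusted p = 0.00281), RBL2 at 0.66 (0.0088), CDK6 at 0.44 (0.0116) and CDKN1A at 0.42 (0.0442). E2F8 stood at -0.73 (0.000201), CDKN1B at -0.57 (0.000215), CDC25C at -0.47 (0.00112), AURKA at -0.47 (0.00447) and CDKN2A at -0.45 (0.00144). MCM2 stood at -0.41 (0.00283), CDKN2B at -0.34 (0.0343), CDKN2C at -0.30 (0.0252) and CDC20 at -0.29 (0.0393). The calls at CDKN1A, CDC20, CDKN2B and CDKN2C were lost when single libraries of either line were left out, CDKN1A for 9 of the 12 libraries, CDC20 for 8, CDKN2B for 8 and CDKN2C for 6, and that at RBL2 without BT-549 DOX replicate 1. The 3 BT-549 DOX libraries were the shallowest, and the part of depth in these differences was not tested. No group had enough libraries for a check of single outlying values.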

How the results depend on the processing

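With the highest bin in place of the sum, 12 windows were called in DU-145 (4 higher, 8 lower), against 28.6% of all genes, and 4 in BT-549 (4 higher, 0 lower), against 15.0%. These held 9 of the 25 and 3 of the 10 genes called by the sum. With that choice RBL2 (-0.11) and MCM2 (-0.24) in DU-145 and MCM5 (0.002) in BT-549 changed sign, and MCM2 in BT-549 did so with a 5 kb window (-0.047). The cause was not tested. With library totals, 12 promoters were called in BT-549. Counts of DAR bins moved with the cutoff and the test. With the cutoff of the other line DU-145 had 124 (80 higher, 44 lower) and BT-549 had 13 (13 higher, 0 lower), with DESeq2 they had 8 and 22, and with the GC trend removed 34 in BT-549. Leaving out 1 library gave 22 to 35 DAR bins in DU-145 and 24 to 45 in BT-549. The lowest values came without DU-145 vehicle replicate 2 and without BT-549 DOX replicate 2, and without DU-145 DOX replicate 3 there were 29. It gave 20 to 26 and 8 to 11 windows, 13 to 18 and 6 to 9 promoters (DU-145, BT-549), 31 to 35 windows between the vehicle lines and 9 to 13 in the difference of DOX effects. By any overlap of a peak with the promoter, 51 genes had one in BT-549 vehicle cells. Deviations of vehicle and DOX libraries with the same number correlated at -0.014 to 0.14, and those with different numbers at -0.18 to 0.13. With so few libraries this does not settle whether the numbers pair them. With the replicate number as a block, 27 and 11 windows, 21 and 8 promoters, 35 and 16 windows for the 2 comparisons of lines, and 43 and 46 DAR bins were called, and no named gene changed its call. The BT-549 DOX libraries had the lowest depth, and the part of depth in the calls was not tested.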
